A study of Mus musculus with 2 samples.

Results

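The 30 genes described here carry glucose through glycolysis to lactate or belong to the transcriptional response to low oxygen. They were chosen by symbol from the gene list of the count tables: 15 glycolytic enzymes and transporters and 15 hypoxia response genes, out of 31053 genes. The 30 symbols matched 31 entries, because Aldoa is listed under 2 identifiers. The entry ENSMUSG00000030695, with 431825 UMIs, was used, and the other held 2 UMIs. A UMI (unique molecular identifier) marks 1 captured RNA molecule.

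The study profiled single leukocytes from subcutaneous B16-F10 tumours, a melanoma line of the C57BL/6 strain, by droplet RNA sequencing of transcript 3′ ends. The hosts in both groups were wild-type female C57BL/6 mice aged 10 weeks, injected in the right flank. One group received a control treatment and the other an agonist antibody against OX40, a costimulatory receptor of activated T cells. Each group is 1 library of live CD45-positive sorted cells. Doses, treatment days and the number of mice behind each library are not given in the sources used here. With 1 library per group no test between the groups was possible. All intervals are 95% intervals that cover counting error only, and a difference between the libraries cannot be told apart from a difference between the treatments.

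Glycolysis splits 1 glucose into pyruvate in a chain of cytosolic enzymes, and lactate dehydrogenase and the lactate exporters carry its end product away when pyruvate does not enter the mitochondria. In low oxygen the prolyl hydroxylases stop marking HIF-1α for destruction, and the HIF heterodimer then binds short DNA elements with the core RCGTG and raises transcription of most glycolytic genes, of angiogenic ligands and of its own inhibitors. Solid tumours are known for poorly oxygenated regions, and B16 tumours, activated T cells and inflammatory macrophages are all known for high glycolytic flux.

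The core of that element is shown for members of both lists. RefSeq promoters (GRCm38.p6) matched 28 of the 30 genes, with Ero1l listed as Ero1a, and not Bnip3l or Ndrg1. The letters ACGTG on either strand occurred within 250 bases before a start of 17 of the 28 genes (60.7%), against 18.5% of 27025 genes. Counted by start, 18 of 39 member starts (46.2%) and 16.6% of 32851 starts held them. They were present for 8 of 15 glycolysis genes (Hk2, Aldoa, Pgk1, Pgam1, Pkm, Ldha, Slc2a1 and Slc16a3) and 9 of 13 matched hypoxia genes (Vegfa, Bnip3, Egln3, Ankrd37, P4ha1, Ero1l, Ddit4, Hilpda and Car9). The other form of the core, GCGTG, occurred for 18 of the 28 members (64.3%), against 30.9% of all genes. Not all of these starts are the outer start of the gene. The ACGTG stretches of Aldoa, Pkm, Ldha, Slc16a3, Vegfa, Ankrd37, Ero1l, Hilpda and Car9 lie inside the gene's GENCODE bounds. That of Slc2a1 spans the edge of the gene. For Vegfa, Aldoa, Pkm and Hilpda the outermost RefSeq start had no ACGTG. How often this holds among all genes was not counted. These matches describe letters in a window and are no evidence of binding. The stretches below, 5′ to 3′ on the gene's strand, are some of those that also lie before the gene in the GENCODE annotation from which positions are given here. They are Pgk1 at chrX:106186925-106186998 (plus strand), Pgam1 at chr19:41911732-41911786 (plus), Bnip3 at chr7:138909584-138909639 (minus), Egln3 at chr12:54204074-54204124 (minus), P4ha1 at chr10:59323255-59323295 (plus) and Ddit4 at chr10:59951928-59951982 (minus). Capitals mark ACGTG or its reverse complement CACGT. Where both overlap they read CACGTG, as before Bnip3, which encodes a mitophagy receptor.
Pgk1: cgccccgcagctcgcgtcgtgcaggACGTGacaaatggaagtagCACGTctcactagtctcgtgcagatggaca
Pgam1: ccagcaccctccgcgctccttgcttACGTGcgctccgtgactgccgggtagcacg
Bnip3: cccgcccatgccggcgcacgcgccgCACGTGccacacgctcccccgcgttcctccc
Egln3: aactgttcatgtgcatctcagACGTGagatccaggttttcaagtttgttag
P4ha1: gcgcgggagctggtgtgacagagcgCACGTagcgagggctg
Ddit4: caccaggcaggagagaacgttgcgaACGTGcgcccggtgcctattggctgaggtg

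The libraries held 7187 control and 8569 OX40-agonist barcodes, with 114026695 and 118059108 UMIs, and 18 barcode sequences occurred in both. After filters 5986 and 6967 cells were kept, with medians of 9419 and 7729 UMIs. Cells were assigned to 15 types by limits on marker UMIs, and 11 types with at least 50 cells in each library were compared. Left out of these types were 900 and 896 cells that met no limits, 133 and 183 T cells outside the 3 T cell types, and 80 and 51 cells with melanoma markers but under 10000 UMIs. A melanoma gate of 366 and 568 cells passed the CD45 sort. It held 8 melanoma markers at a summed 16119 and 15507 CPM, beside 458 and 431 CPM of leukocyte markers. CPM are the UMIs of a gene scaled to 1000000 UMIs of its cell type and library. The median depth per cell was lower in the OX40-agonist library in each of the 15 types except B cells, for example 78215.5 against 68110 UMIs in melanoma cells and 4886 against 3653 in NK cells. As an alternative, gated cells were thinned at random to equal depth. Such a draw leaves the expected share of each gene in a cell unchanged. It therefore cannot show the part of depth in the differences below, which was not tested.

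Both lists differed more between cell types than between the libraries. The 15 glycolysis genes made up 3.45% of all UMIs of melanoma-gated cells in the control library and 2.77% in the OX40-agonist library. Phagocytes positive for arginase 1 (Arg1) came next, with 1.97% and 1.76%. C1q-high phagocytes held 1.34% and 1.32%, and regulatory T cells 1.33% and 1.24%. CD8 T cells held 1.21% and 1.16%, and monocyte-gated cells 1.02% and 0.916%. The lower end was taken by NK cells (0.667% and 0.478%), mature dendritic cells (0.584% and 0.457%), plasmacytoid dendritic cells (0.430% and 0.397%, from 16 and 35 cells) and B cells (0.418% and 0.350%, from 10 and 43 cells). Gapdh alone supplied 34.6% and 35.3% of the glycolysis UMIs of melanoma cells.

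The 15 hypoxia genes had another order. Arg1-positive phagocytes (0.508% and 0.511% of UMIs) and melanoma cells (0.495% and 0.422%) stood at nearly the same height. Mif, which encodes a secreted cytokine, was the largest member of both sums. It supplied 52.1% and 59.9% of the melanoma sum and 39.9% in both libraries of the Arg1-positive sum. Neutrophils held 0.392% and 0.575%, led by Hilpda. C1q-high phagocytes held 0.231% and 0.259%, and mature dendritic cells 0.0973% and 0.0772%. Melanoma cells were the highest gate in both libraries for Hk1, Gpi1, Pfkl, Aldoa, Tpi1, Gapdh, Pgk1, Pgam1, Eno1, Pkm, Ldha, Mif, Car9 and Pgf. Arg1-positive phagocytes were highest for Slc2a1, Vegfa, Ndrg1, Adm and Ankrd37, neutrophils for Slc16a3, Egln3, P4ha1 and Hilpda, cDC1 for Pfkp and regulatory T cells for Ddit4. For Slc2a1, Egln3 and Pfkl in the control library, Hk1, Gpi1 and Ddit4 in the OX40-agonist library and Ankrd37 in both, the interval overlapped that of the next gate.

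**Figure D1:**
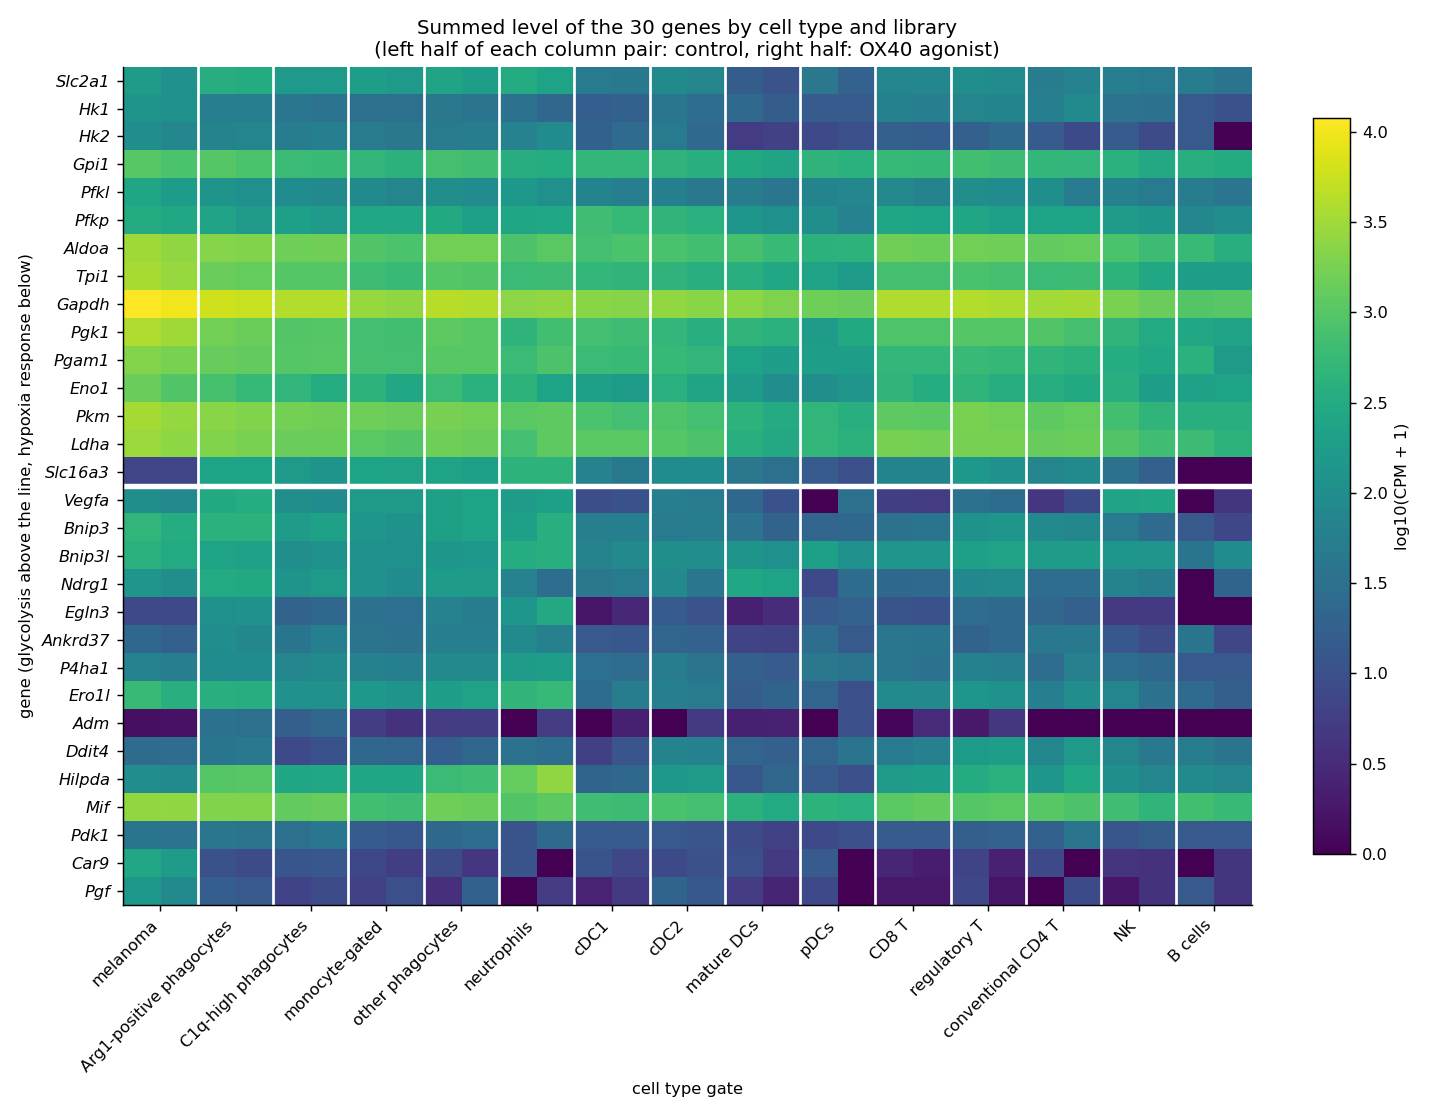
Summed level of each of the 30 genes (rows, CPM on a log colour scale) in each cell type gate (columns), with the control library on the left and the OX40-agonist library on the right of each column pair. Most glycolysis genes are highest in the melanoma columns, with Pfkp highest in cDC1, Slc2a1 in Arg1-positive phagocytes, Slc16a3 in neutrophils and Hk2 in neutrophils of the OX40-agonist library, while Hilpda and Egln3 are highest in neutrophils and Vegfa in Arg1-positive phagocytes.

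In melanoma-gated cells almost the whole glycolytic chain was lower in the OX40-agonist library. Of 14 glycolysis genes measured (at least 10 CPM in either library), 12 were lower past 1.2-fold, taken as the ratio after 10 CPM was added to both levels. None was higher. Of all 7812 measured genes, 3.73% were lower and 1.84% higher past that fold. The median log2 difference was -0.32 over the 14 genes and 0.03 over all genes, and single members ranged from -0.62 to -0.19. The hypoxia list had 8 of 13 measured genes lower and none higher, with a median of -0.33 and a range from -0.71 to 0.03. Past 1.5-fold, 2 genes of each list were lower, against 1.06% of all genes. In pooled mononuclear phagocytes (2291 and 2797 cells) the same lists stayed closer to their control levels. Only Pfkp and Eno1, 2 of 15 glycolysis genes, were lower past the fold there, against 4.82% of 6996 genes, and no hypoxia gene of 13 was lower or, against 4.43% of genes, higher. None of the members was lower past 1.5-fold in phagocytes, against 0.772% of genes.

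Glucose enters through Slc2a1 (GLUT1, chr4:119108711-119137983 in GRCm38). Its level in melanoma cells was 179 CPM in the control and 113 CPM in the OX40-agonist library, a ratio of 0.629 (0.605 to 0.655), and 206 and 191 CPM in phagocytes. Hexokinase traps glucose as its 6-phosphate. Hk1, its broadly expressed form, was at 129 and 112 CPM in melanoma cells and 41.0 and 37.7 CPM in phagocytes. Hk2, the inducible form, was at 99.8 and 77.4 CPM in melanoma cells, a ratio of 0.775, and 53.7 and 55.8 CPM in phagocytes. Gpi1, the isomerase of the next step, was at 1055 and 831 CPM in melanoma cells and 676 and 598 CPM in phagocytes. Phosphofructokinase makes the committed step. Its liver-type subunit Pfkl was at 249 and 172 CPM in melanoma cells, a ratio of 0.690 (0.668 to 0.713), and 101 and 89.6 CPM in phagocytes. The platelet-type subunit Pfkp was at 322 and 264 CPM in melanoma cells and 226 and 177 CPM in phagocytes, ratios of 0.820 and 0.782. Aldoa cleaves the hexose and was at 3141 and 2519 CPM in melanoma cells and at 1550 and 1551 CPM in phagocytes. Tpi1 interconverts the resulting trioses and was at 3552 and 2769 CPM in melanoma cells and 1022 and 982 CPM in phagocytes. In melanoma cells Hk1 alone of these 8 genes was not past 1.2-fold.

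The energy-yielding steps followed the same pattern. Gapdh (chr6:125161715-125166467), which oxidises the triose, was at 11939 and 9771 CPM in melanoma cells, a ratio of 0.818 (0.815 to 0.822), and at 4272 and 4032 CPM in phagocytes. Pgk1, the first ATP-forming enzyme, was at 3930 and 3188 CPM in melanoma cells and 1076 and 1049 CPM in phagocytes. Pgam1, the mutase, was at 2121 and 1822 CPM in melanoma cells, short of 1.2-fold, and at 1037 and 1046 CPM in phagocytes. Eno1 (chr4:150236721-150248879), the enolase of most tissues, was lower in both. Its level was 1405 and 919 CPM in melanoma cells, a ratio of 0.654 (0.645 to 0.663), and 544 and 370 CPM in phagocytes, a ratio of 0.679 (0.662 to 0.696). Pkm, pyruvate kinase, was at 3418 and 2690 CPM in melanoma cells and 1768 and 1615 CPM in phagocytes. Its splice forms M1 and M2 share the 3′ end and cannot be separated in these counts. Ldha reduces pyruvate to lactate and was at 2929 and 2402 CPM in melanoma cells and 1474 and 1447 CPM in phagocytes. The lactate exporter Slc16a3 (MCT4) was under 10 CPM in melanoma cells, at 6.18 and 6.24 CPM, and at 190 and 165 CPM in phagocytes. Reads of genes with near-identical pseudogene copies, such as Gapdh, can be lost or misassigned, so their levels carry that uncertainty.

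**Figure D2:**
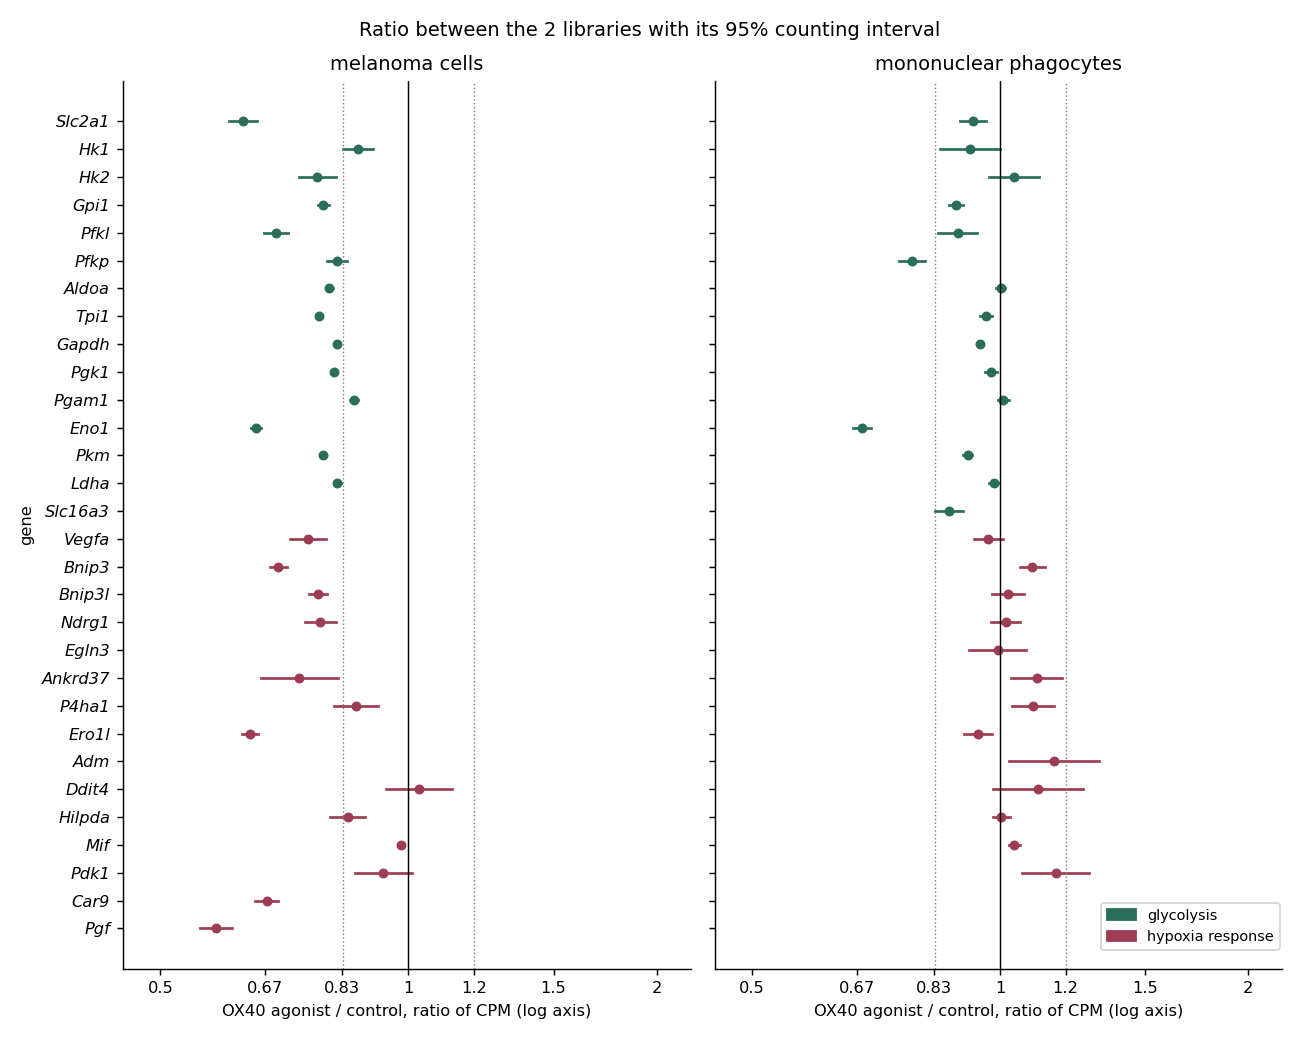
Ratio of the OX40-agonist to the control level of each gene (log axis) in separate panels by cell type, with bars for the 95% counting interval. In the melanoma panel most genes sit between 0.6 and 0.9, with Mif near 1, while in the phagocyte panel most sit near 1 and Eno1 stands at 0.679.

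Among the hypoxia genes, the ligands of blood vessel growth were lower in melanoma cells. Vegfa was at 107 and 80.9 CPM there, a ratio of 0.755, and at 160 and 155 CPM in phagocytes. Pgf, placental growth factor, was at 148 and 86.6 CPM in melanoma cells, a ratio of 0.584 (0.559 to 0.611) and the lowest of the measured members there. In phagocytes Pgf stayed under 10 CPM, at 7.16 and 9.71. Adm, the vasodilator adrenomedullin, was near zero in melanoma cells (0.493 and 0.576) and at 16.3 and 19.0 CPM in phagocytes. The mitophagy receptors Bnip3 and Bnip3l were at 484 and 336 CPM and at 394 and 306 CPM in melanoma cells, ratios of 0.695 (0.679 to 0.712) and 0.777. In phagocytes Bnip3 was at 219 and 239 CPM and Bnip3l at 134 and 137 CPM.

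Ero1l, the oxidase that drives disulfide formation in the endoplasmic reticulum, was at 581 and 373 CPM in melanoma cells, a ratio of 0.642 (0.628 to 0.656), and at 176 and 165 CPM in phagocytes. Car9 (chr4:43506966-43513729), the cell-surface carbonic anhydrase, was at 267 and 180 CPM in melanoma cells, a ratio of 0.673 (0.652 to 0.695), and at 9.78 and 9.26 CPM in phagocytes. P4ha1, a collagen prolyl hydroxylase, was at 63.3 and 54.7 CPM in melanoma cells, short of 1.2-fold, and 75.3 and 82.5 CPM in phagocytes. Ndrg1, a stress-response gene, was at 133 and 104 CPM in melanoma cells and 167 and 170 CPM in phagocytes. Ankrd37, a small ankyrin-repeat protein, was at 23.0 and 17.0 CPM in melanoma cells and 51.1 and 56.6 CPM in phagocytes.

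Of the remaining hypoxia genes none was past 1.2-fold in melanoma cells. Mif was at 2583 and 2529 CPM, a ratio of 0.979 (0.970 to 0.988), and at 1328 and 1381 CPM in phagocytes. Hilpda, which blocks lipid droplet breakdown, was at 99.3 and 83.8 CPM in melanoma cells and 438 and 439 CPM in phagocytes. Pdk1 keeps pyruvate out of the mitochondria by inhibiting pyruvate dehydrogenase, and was at 36.9 and 34.4 CPM in melanoma cells and 28.7 and 33.6 CPM in phagocytes. Ddit4, an inhibitor of mTORC1, was at 26.3 and 27.2 CPM in melanoma cells and 16.4 and 18.2 CPM in phagocytes. Egln3, the oxygen-sensing hydroxylase that is itself a HIF target, was under 10 CPM in melanoma cells (6.90 and 6.91) and at 43.9 and 43.6 CPM in phagocytes.

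Genes around these pathways gave the following counts in melanoma cells. Of 16 other measured hypoxia targets, 6 were lower, with a median log2 difference of -0.24, among them Anxa2 (656 and 476 CPM), Higd1a (1270 and 969), Plin2 (125 and 91.8) and Rora (55.7 and 40.8). Of 8 genes of the HIF system only Egln1 was lower (279 and 211 CPM), and Hif1a itself was at 174 and 158 CPM. Of 16 measured genes of glycolysis control and side branches 1 was lower, the glycogen synthase Gys1 (47.1 and 36.8 CPM). None of 16 respiratory chain genes was past the fold, and their median was 0.02. Of 13 measured dissociation stress genes 7 were lower, with a median of -0.30, among them Fos (538 and 379 CPM), Jun (497 and 379), Dusp1 (106 and 79.0) and Dnajb1 (84.3 and 58.9). The part of that stress signal in the melanoma differences was not tested. Phagocyte markers in the melanoma gate stood at 0.519% and 0.453% of their phagocyte level.

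In phagocytes the same surrounding lists were mixed. Of 17 other hypoxia targets 1 was lower, Nos2 (54 and 24.8 CPM), the inducible nitric oxide synthase, and 3 were higher, Bhlhe41 (21.9 and 51.1 CPM), Cxcr4 (86.9 and 115) and Mt2 (95.3 and 123). None of 8 HIF system genes was past the fold, with Hif1a at 184 and 155 CPM, and none of 16 glycolysis control genes and 16 respiratory chain genes was. Of 15 dissociation stress genes 4 were higher, among them Egr1 (87.2 and 148 CPM) and Hspa1a (413 and 520).

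Which gene of a family carried each step depended on the cell type, and these shares were close in the 2 libraries in most gates. Each UMI is 1 tag at a transcript's 3′ end, so the shares compare molecules and are not divided by length. Among hexokinases Hk1 held 56.2% and 59.0% in melanoma cells, with Hk2 at 43.5% and 40.7%, and 76.9% and 76.8% in CD8 T cells. In phagocytes the myeloid form Hk3 held 54.5% and 47.8%. Phosphofructokinase was split between Pfkp (54.5% and 58.3%) and Pfkl (42.2% and 38.0%) in melanoma cells, whereas in cDC1, the cross-presenting dendritic cells, Pfkp held 90.5% in both libraries. cDC1 also had the highest Pfkp level of all gates, 673 and 537 CPM, followed by cDC2 with 457 and 381 CPM. Enolase was nearly all Eno1 in melanoma cells (96.2% and 94.5%). In mature dendritic cells Eno3, known as the muscle form, held 56.5% and 67.5% and Eno1 41.5% and 28.6%.

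Transporter and dehydrogenase shares are those of a pair of genes, and other transporters were not counted. Glucose transport in CD8 T cells was shared by Slc2a1 with Slc2a3 (GLUT3). Slc2a3 held 52.4% and 48.4% of the UMIs of that pair, against 2.93% and 5.39% in melanoma cells. Of the UMIs of the lactate transporters Slc16a1 (MCT1) and Slc16a3 in melanoma cells, Slc16a1 held 81.4% and 82.6%. Slc16a3 held the remaining 18.6% and 17.4%. In phagocytes Slc16a3 held 95.4% and 93.4%, and in CD8 T cells 75.4% and 76.5%. Ldhb, the heart-type dehydrogenase subunit, held 14.5% and 17.7% of the Ldha and Ldhb UMIs in melanoma cells and 0.879% and 0.899% in phagocytes.

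Hypoxia families divided in the same way. Pdk1 held 35.7% and 37.6% of its kinase family in melanoma cells, behind Pdk3 with 60.2% and 58.5%, and 65.0% and 61.8% in Arg1-positive phagocytes. CD8 T cells were again led by Pdk3 (76.1% and 75.1%). Bnip3l exceeded Bnip3 in CD8 T cells, with 80.5% and 79.0% of the pair, and stood at 44.9% and 47.7% in melanoma cells and 37.9% and 36.4% in phagocytes. The HIF hydroxylases were mainly Egln1 in melanoma cells (87.2% and 84.5%), while Egln3 held 37.0% and 41.0% in Arg1-positive phagocytes and 56.5% and 74.5% in neutrophils, there from 23 and 94 UMIs of the family. Angiogenic ligands in melanoma cells were Vegfb (45.2% and 55.2%), Pgf (31.8% and 23.2%) and Vegfa (23.0% and 21.6%). Vegfa held 85.6% and 79.8% in phagocytes and 91.9% and 91.5% in NK cells, whose Vegfa level was 225 and 251 CPM.

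**Figure D3:**
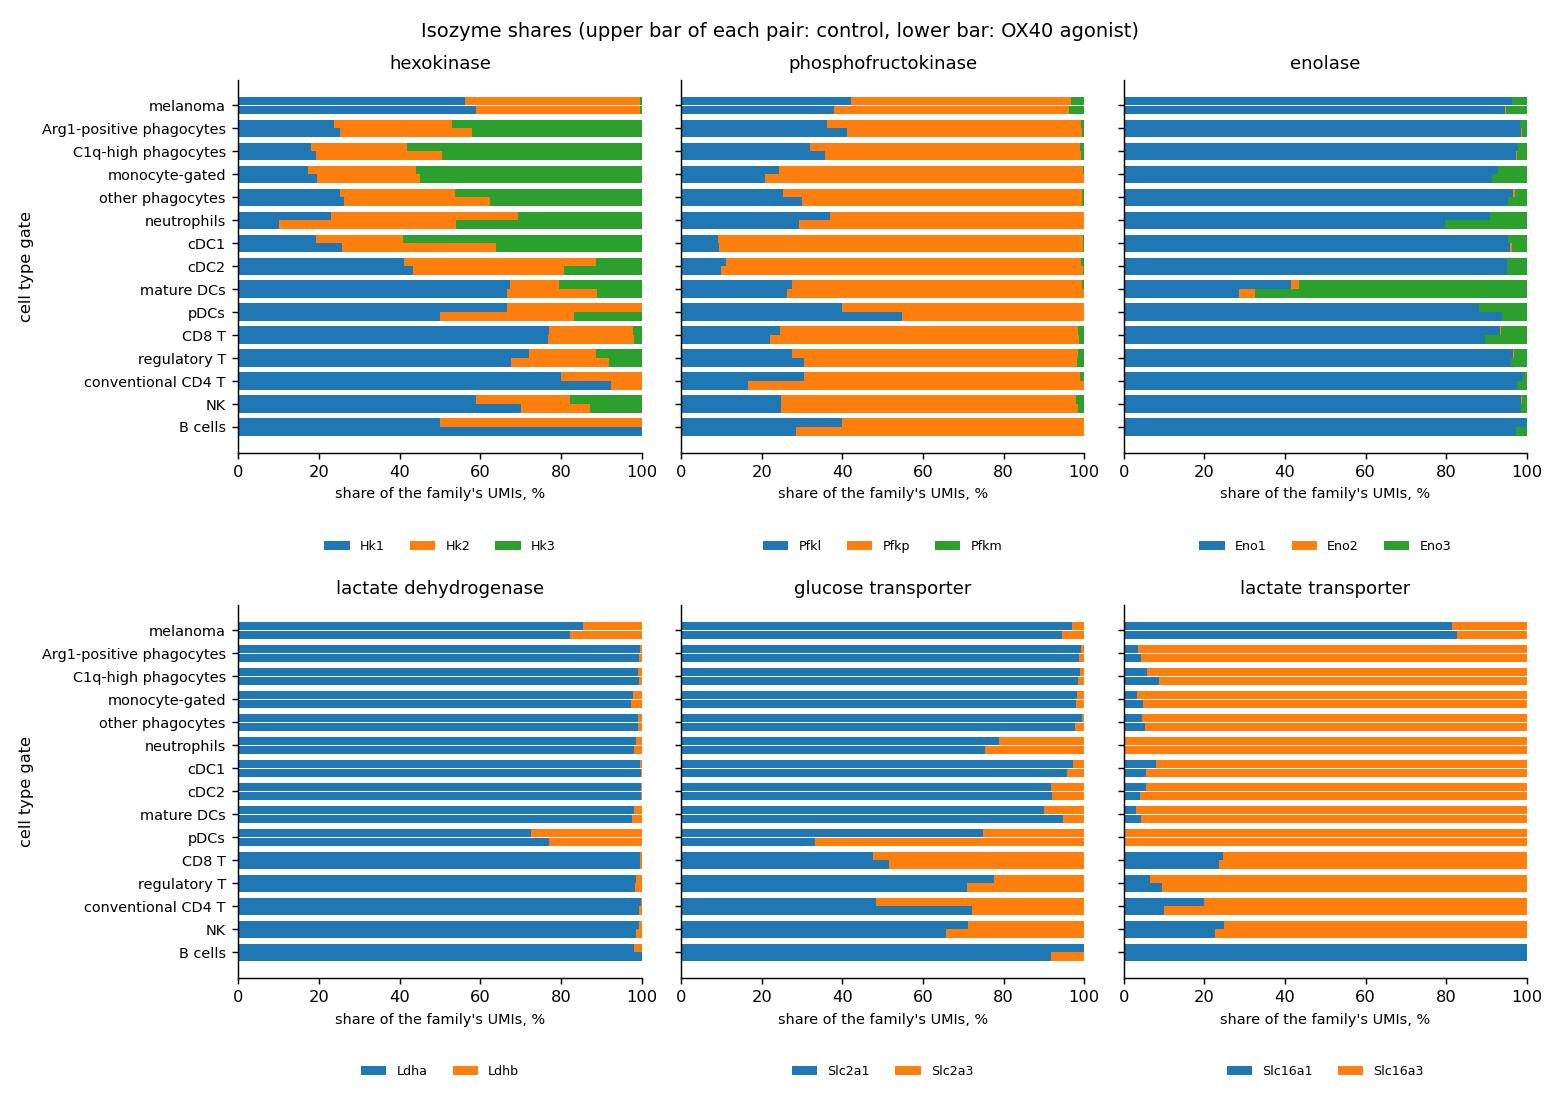
Share of each family's UMIs (percent, x axis) held by each gene (colours) in each cell type gate (y axis), with the control library as the upper and the OX40-agonist library as the lower bar of each pair. Melanoma cells differ from phagocytes in the lactate exporter (Slc16a1 against Slc16a3), and cDC1 stand out by a Pfkp share of 90.5%.

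Melanoma cells of 1 library were not uniform. The summed glycolysis level per 10000 UMIs of a cell had a 10th percentile, median and 90th percentile of 192, 361 and 512 in the control and 155, 265 and 462 in the OX40-agonist library. For the hypoxia sum they were 21.1, 48.7 and 91.1 in the control and 19.3, 37.3 and 86.4 in the OX40-agonist library. The ratio of the 90th to the 10th percentile of the hypoxia sum was 4.31 and 4.48 in melanoma cells, 3.86 and 4.30 in Arg1-positive, 7.73 and 8.5 in C1q-high and 14.9 and 19.1 in monocyte-gated cells, whose median depth was 7344 and 5653 UMIs. The part of depth in that order was not tested. The coefficient of variation beyond counting error separated steady from patchy genes in melanoma cells. It was 0.33 and 0.35 for Eno1, 0.31 and 0.36 for Mif and 0.45 and 0.47 for Gapdh. It was 1.03 and 1.16 for Slc2a1, 1.15 and 1.42 for Ero1l, 1.49 and 1.69 for Ankrd37 and 2.08 and 2.45 for Pgf.

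The lists varied together from cell to cell. Across melanoma cells the glycolysis and hypoxia sums had a Spearman correlation of 0.891 (366 cells) and 0.911 (568 cells), as a description of cells that share a library. The glycolysis sum had one of -0.290 and -0.328 with the UMIs of the cell, so it was higher in the shallower cells. In C1q-high phagocytes the correlation of the sums was 0.766 and 0.803, in CD8 T cells 0.732 and 0.759, in Arg1-positive phagocytes 0.588 and 0.598 and in NK cells 0.455 and 0.418. In CD8 T cells the glycolysis sum also followed depth, with 0.546 and 0.532. Single genes of melanoma cells were compared with the sum of the other hypoxia genes. Bnip3 had the closest relation, 0.900 and 0.896, and Pgk1 had 0.836 and 0.886. Eno1 had 0.516 and 0.659, and Hk1 0.441 and 0.413.

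Within each library the 25% of melanoma cells lowest and the 25% highest in the sum of the other hypoxia genes were compared, 92 control and 142 OX40-agonist cells at each end. Pgf went from 11.2 CPM at the low end to 430 CPM at the high end of the control library (38.4 times) and from 7.5 to 324 CPM in the OX40-agonist library (43.2 times). Car9 went from 27.8 to 580 CPM (20.8 times) and from 14.1 to 529 CPM (37.4 times). Ero1l went from 94.1 to 1593 CPM (16.9 times) and from 67.8 to 1135 CPM (16.7 times). Slc2a1 went from 41.0 to 455 CPM (11.1 times) and from 31.6 to 306 CPM (9.71 times). Among glycolytic enzymes Hk2 had ratios of 5.74 and 6.04 and Gapdh of 2.38 and 2.55. Eno1 differed least of the glycolysis genes measured, from 1022 to 1659 CPM (1.62 times) and from 652 to 1183 CPM (1.81 times). At both ends Eno1 was lower in the OX40-agonist library, and its high OX40-agonist end (1183 CPM) was close to its low control end (1022 CPM). Cells at the low end were the deeper ones, with medians of 96387.5 and 79720 UMIs against 63158.5 and 55289 at the high end. The part of depth in these ratios was not tested.

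**Figure D4:**
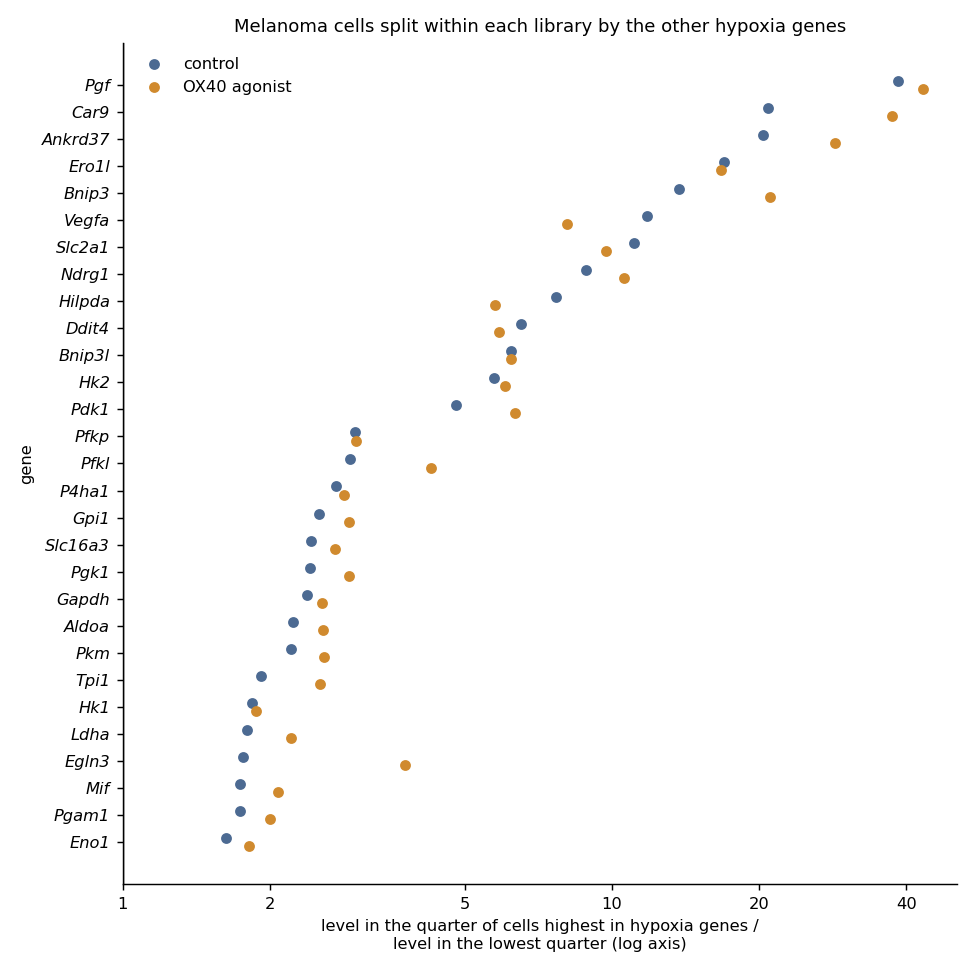
Level of each gene in the 25% of melanoma cells highest in the other hypoxia genes, divided by its level in the lowest 25% (log axis), with 1 point per gene and library. Adm, which was near zero in melanoma cells, is not shown. Pgf, Car9 and Ankrd37 have ratios from 20.4 to 43.2 in the 2 libraries, and Eno1 lies at 1.62 and 1.81.

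Within the phagocytes both lists were highest in the Arg1-positive cells (470 and 574 cells). Arg1 itself marks alternatively activated and hypoxic macrophages in mouse tumours. Compared with C1q-high phagocytes of the same library, 14 and 13 of 15 glycolysis genes and 13 and 12 of 15 hypoxia genes were higher past 1.2-fold, against 10.6% and 11.1% of all genes. Egln3 had the highest ratio, 5.93 in the control and 5.60 in the OX40-agonist library. Ddit4 had 5.35 and 4.49, Hilpda 4.06 and 3.72, Ero1l 3.13 and 3.05, and Vegfa 3.0 and 3.55. Slc2a1 had 2.28 and 2.00, and Gapdh 1.49 and 1.36. Pfkp was nearly level, with 1.13 and 1.00. Car9, with 0.826 and 0.656, was lower past the fold in the OX40-agonist library. Compared with monocyte-gated cells, 13 of 15 glycolysis genes in each library and 14 of 14 hypoxia genes were higher, against 24.3% and 24.0% of all genes. Pfkp, with 0.834 and 0.596, and Slc16a3, with 1.00 in both, were the exceptions.

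Between the libraries, few members differed within these phagocyte gates. In Arg1-positive cells Gpi1 (1011 and 824 CPM), Pfkp (225 and 157) and Eno1 (775 and 532), 3 of 15 glycolysis genes, were lower, against 7.64% of all genes, and Ankrd37 was lower at 97.7 and 75.8 CPM. None was higher, against 5.37%. Ankrd37 had also set that gate apart, with 2.58 times its C1q-high level in the control library and 1.34 times in the OX40-agonist library. Other genes that set the gate apart stayed near their control level. Hilpda was at 1020 and 1037 CPM, Vegfa at 302 and 330, Ero1l at 358 and 347 and Egln3 at 112 and 125. In C1q-high cells (904 and 1201 cells) Pfkp (200 and 157 CPM) and Eno1 (484 and 339), 2 of 15 glycolysis genes, were lower, against 7.46% of genes. Bnip3 (178 and 217) and Ankrd37 (37.8 and 56.7 CPM, a ratio of 1.5) were higher there, 2 of 13 hypoxia genes against 6.98%. Hif1a in C1q-high cells was at 147 and 106 CPM. In monocyte-gated cells Pfkl (86.8 and 69.8 CPM), Eno1 (438 and 279) and Ndrg1 (120 and 92.1) were lower. These are 2 of 15 glycolysis genes and 1 of 12 hypoxia genes, against 6.18%. None was higher, against 4.58%. In the phagocytes outside these gates Slc2a1 (238 and 189 CPM), Pfkp (297 and 210) and Eno1 (590 and 402) were lower. These are 3 of 15 glycolysis genes, against 11.3% of all genes. Ddit4 (15.5 and 22.0 CPM) and Pgf (2.59 and 17.4 CPM) were higher, 2 of 13 hypoxia genes against 13.7%. At that background these counts are not set apart from other genes. In that gate 4 erythroid markers summed to 5.54 and 2122 CPM, and their part in these differences was not tested.

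Lymphocytes carried little difference in T cells and more in NK cells. In CD8 T cells (1345 and 1030 cells) Pfkl (82.2 and 65.3 CPM) and Eno1 (469 and 332) were lower, 2 of 15 glycolysis genes against 2.62% of all genes. Gapdh was at 3908 and 3848 CPM and Ldha at 1729 and 1689. Ddit4 (47.4 and 58.9 CPM) was higher, 1 of 11 hypoxia genes against 1.22%. Hilpda was at 158 and 188 CPM and Mif at 1099 and 1229, both short of 1.2-fold. None of the members was lower past 1.5-fold, against 0.129% of genes. In regulatory T cells (141 and 240 cells) Pfkp (262 and 201 CPM), Eno1 (469 and 344) and Slc16a3 (147 and 113) were lower, against 18.9% of genes. Hk2 (16.8 and 24.7) and Hilpda (325 and 395) were higher, against 12.9%. At that background these counts are not set apart from other genes. Ddit4 reached its highest level of any gate in regulatory T cells, 166 and 185 CPM.

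NK cells (213 and 244 cells) had 13 of 15 glycolysis genes and 7 of 11 hypoxia genes lower, against 20.1% of all genes, and none higher, against 15.8%. Past 1.5-fold, 3 genes of each list were lower, against 3.39%. Eno1 was at 364 and 187 CPM, a ratio of 0.513 (0.431 to 0.609), Tpi1 at 439 and 281 and Ldha at 949 and 672. Slc16a3, the third glycolysis gene past 1.5-fold beside Eno1 and Tpi1, was at 33.5 and 16.6 CPM. Ero1l was at 73.4 and 32.3 CPM, a ratio of 0.440 (0.286 to 0.661), and Bnip3 at 46.3 and 25.4 CPM. Pkm was at 702 and 472 CPM and Pgk1 at 462 and 305. Ddit4 was at 72.6 and 42.0 CPM, a ratio of 0.579, and Hilpda at 105 and 72.3, a ratio of 0.692. Vegfa, at 225 and 251 CPM, was not lower. Part of the control level came from 1 cell. It had 30910 UMIs and held 2.47% of the gate's UMIs but 8.20% of its glycolysis UMIs. Without the deepest cell of each gate and library, an alternative chosen after seeing the data, 11 glycolysis and 4 hypoxia genes were lower.

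In mature dendritic cells (242 and 442 cells) 13 of 14 glycolysis genes were lower, against 12.7% of all genes, and 3 of 9 hypoxia genes were. Past 1.5-fold, 1 glycolysis gene and 2 hypoxia genes were lower, against 0.972%. Gapdh was at 2463 and 1977 CPM and Pkm at 431 and 320. Eno1 was at 170 and 97.1 CPM, a ratio of 0.570. Mif was at 420 and 315 CPM, Bnip3 at 34.6 and 19.1 and Vegfa at 23.2 and 9.54. Hilpda, at 11.8 and 21.1 CPM, was the 1 higher gene, against 5.89%. In cDC2 (99 and 141 cells) 9 of 15 glycolysis and 4 of 13 hypoxia genes were lower, against 23.3%. The hypoxia count is near that share and is not set apart from other genes. No member was higher, against 12.2%. Ndrg1 was at 82.4 and 39.3 CPM there, a ratio of 0.477 (0.332 to 0.679), Hk2 at 45.7 and 23.9 and Eno1 at 389 and 240. In the same gate the phagocyte marker Arg1 was at 45.7 and 3.08 CPM, and the sum of 10 phagocyte markers at 644 and 602 CPM. Their part in the cDC2 differences was not tested. In cDC1 (68 and 106 cells) 3 of 15 glycolysis genes were lower, against 21.4%: Pfkl (68.6 and 55.3 CPM), Pfkp and Slc16a3 (64.3 and 43.7). Of 11 hypoxia genes there Car9 (10.6 and 6.43 CPM) was lower. Hk2 (17.7 and 25.7 CPM), Ddit4 (4.95 and 10.9) and Ero1l (26.9 and 51.5) were higher, against 11.8%. The ratio of Ero1l was 1.92 (1.29 to 2.90), and the intervals of Hk2, Ddit4 and Car9 included 1. At that background the cDC1 counts are not set apart from other genes.

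**Figure D5:**
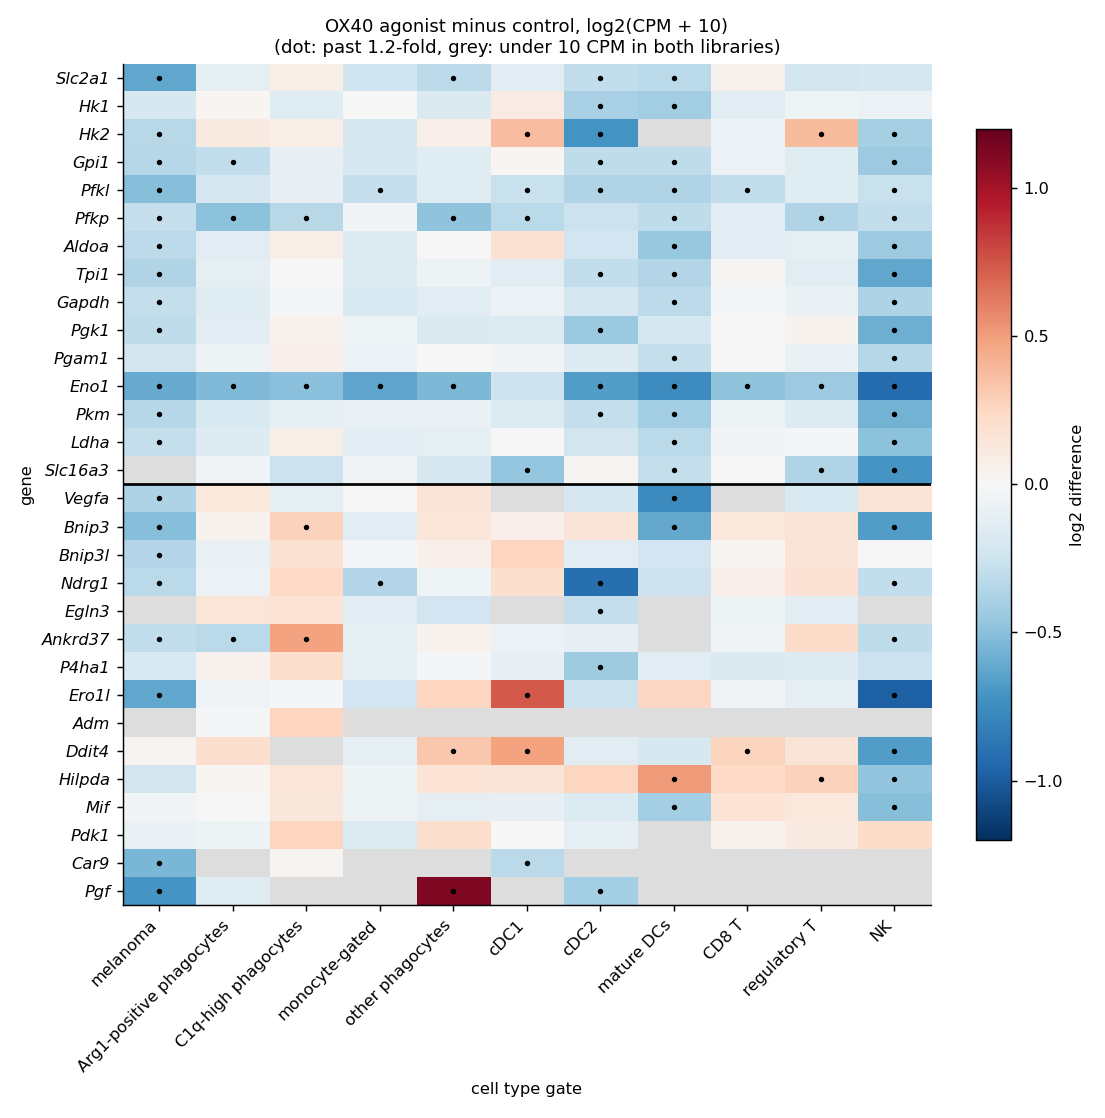
Difference between the OX40-agonist and the control library on the log2(CPM + 10) scale for each gene (rows) and cell type gate (columns), with a dot where it is past 1.2-fold and grey where both levels are under 10 CPM. The Eno1 row is below 0 in all 11 gates, and the melanoma, NK and mature dendritic cell columns hold most of the lower values.

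Eno1 was the member whose difference recurred. It was below 0 in all 11 compared gates and lower past 1.2-fold in 10 of them, from a log2 difference of -0.93 in NK cells to -0.25 in cDC1, the exception. Only 3 of 4461 genes measured in all 11 gates (0.0672%) were lower in at least 10. The other two were Rpl35, a ribosomal protein gene, and Gm10076, each lower in 11 of 11. A difference of like sign in every cell type of 1 library is also what a difference between the 2 libraries themselves would give, and these cannot be told apart here. Eno1b, a near copy that could take reads from Eno1, held 0.401% and 0.410% of the summed Eno1 and Eno1b UMIs of melanoma cells. Reads lost from the counts because they match both genes would not show in that share. Pfkp was lower in 8 gates and Pfkl in 7.

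Neutrophils (39 and 113 cells, with medians of 1814 and 1490 UMIs) were too few in the control library to compare, and their values are levels. The neutrophil gate set no upper limit on phagocyte markers. There 10 phagocyte markers summed to 3845 and 6194 CPM, and 3 C1q genes among them to 297 and 2178 CPM. In the OX40-agonist library 1 cell held 7.45% of the gate's UMIs and 14.0% of its glycolysis UMIs. The part of these in the neutrophil levels was not tested. Hilpda was at 1282 and 2537 CPM, the highest of any gate. Slc16a3 was at 424 and 439 CPM, Egln3 at 138 and 293 and P4ha1 at 180 and 188. Car9 was at the other extreme, with its level set almost entirely by melanoma cells. RNA released from lysed cells can give UMIs in cells that do not make a transcript. Melanoma markers stood in the leukocyte gates at 0.407% to 1.15% of their melanoma level, and at 2.76% and 2.67% in neutrophils. Car9 stood at 0.652% and 0.590% of its melanoma level in CD8 T cells, within that range. In C1q-high phagocytes it stood at 4.22% and 6.51% (11.3 and 11.7 CPM), above it. Arg1-positive phagocytes (3.49% and 4.27%), monocyte-gated cells and other phagocytes were also above it in both libraries. For other phagocytes of the OX40-agonist library, with 9 Car9 UMIs, the interval (0.868% to 3.60%) reached into that range. So were mature dendritic cells (3.33% and 2.19%), cDC1 (3.97% and 3.58%) and cDC2 (2.68% and 5.15%). NK cells were above it on 4 and 3 Car9 UMIs, with intervals that reached into the range in both libraries. Regulatory T cells were above it in the control library only, on 6 UMIs and with an interval (0.769% to 4.56%) that reached into the range. The remaining leukocyte gates held at most 2 Car9 UMIs per library.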

How the data were processed

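The authors sequenced 3′ transcript ends with the 10x Chromium v3 chemistry, per the labels, and deposited raw UMI counts per gene and cell barcode, made with Cell Ranger 3.1.0 per the file headers and the mm10 build per the submitters' processing notes. The counts were used as deposited. Barcodes under 500 UMIs or 200 genes, or over 10% mitochondrial UMIs, were dropped, and 368 control and 533 OX40-agonist barcodes with the highest scores against simulated doublets were removed. Cells were gated 1 by 1 on summed marker UMIs, and the members and lists were chosen with earlier results of these data known. Gate limits were set after marker distributions were seen. The named values are all members in melanoma cells and phagocytes, and elsewhere the highest or lowest levels and members at 50 CPM or more past 1.5-fold. Other members named by cell type were chosen after their values were seen. UMIs were summed per gate and library, scaled to CPM and compared as a ratio with an exact conditional interval. Poisson and Clopper-Pearson intervals were used for levels and shares. Calls used log2(CPM + 10), at least 10 CPM in either library and 1.2-fold. They were also run on simulated counts with counting error only, at a depth near that of the melanoma gate. Other gates are shallower, so the simulation does not cover them, nor variation between cells or libraries. Coordinates are those of GENCODE on GRCm38. The 15 alternatives covered filters, doublets, gates, clusters, thinning, averaging, scaling, thresholds and the deepest cells. Analyses used Python 3.11.15, NumPy 2.4.6, SciPy 1.17.1, pandas 2.3.3, scikit-learn 1.9.0 and igraph 0.11.9.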

Additional observations from a re-analysis of the deposited data

Results flagged for a closer look

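Several members were lower past 1.2-fold in 1 cell type and higher in another, with intervals on either side of 1, at 50 CPM or more in the higher library. The difference was not tested in any of these cases, because each value rests on 1 library per group. The share of all genes that meet the same rule was not counted, so these members are not set apart from other genes. In single gates many genes were past the fold, for example 20.1% of all genes lower in NK cells and 11.8% higher in cDC1. Bnip3 had a ratio of 0.695 in melanoma cells and 1.22 in C1q-high phagocytes. Ankrd37 had 0.776 in Arg1-positive and 1.5 in C1q-high phagocytes. Ero1l had 0.44 in NK cells and 1.92 in cDC1. Ddit4 had 0.579 in NK cells and 1.24 in CD8 T cells. Hilpda had 0.692 in NK cells and 1.21 in regulatory T cells. The NK values rest on 213 and 244 cells. Under at least 1 alternative the log2 difference fell short of 1.2-fold for Ankrd37 in Arg1-positive phagocytes (-0.083), Bnip3 in C1q-high phagocytes (0.21), Hilpda in NK cells (-0.16) and in regulatory T cells (0.15) and Ddit4 in CD8 T cells (0.16).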

How the results depend on the processing

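The counts of lower genes in melanoma cells (12 glycolysis, 8 hypoxia) and in phagocytes (2 glycolysis) stayed within 1.5 times their value under the alternatives run, except at a fold of 1.5. That fold left 2 and 2 in melanoma cells, 0 glycolysis genes in phagocytes and in CD8 T cells, 3 and 3 in NK cells and 1 glycolysis gene in mature dendritic cells. In NK cells the 7 lower hypoxia genes became 4 with Leiden clusters in place of gates, 4 with a mean over cells and 4 without the deepest cells. In CD8 T cells the count of lower glycolysis genes was 1 without doublet removal, against 2 in the main analysis. That of lower hypoxia genes was 1 after thinning to 1000 UMIs, against 0. The 1 higher hypoxia gene of CD8 T cells ranged from 0 to 3 over the alternatives. In mature dendritic cells the count of lower hypoxia genes was 5 without doublet removal and 5 with no minimum level. In C1q-high phagocytes the 2 higher hypoxia genes became 6 with Leiden clusters and 5 without doublet removal, and in cDC2 the 9 lower glycolysis genes became 3 with Leiden clusters and 5 when scaled by the median of all genes. The 3 lower glycolysis genes of cDC1 ranged from 0 to 8 over the alternatives and those of regulatory T cells from 0 to 6, and the 1 higher hypoxia gene of regulatory T cells from 0 to 5. In melanoma cells 2 hypoxia genes were higher after thinning, against none before. Of the log2 differences of single members under the alternatives, 3858 moved by less than their counting error, 317 by more, and 12 that were past 1.2-fold changed sign. After thinning to 1000 UMIs, which leaves few UMIs of a gene in small gates, these were 0.25 for Ankrd37 in melanoma cells, 0.034 for Slc2a1 in other phagocytes, -1.07 for Hk2 in regulatory T cells, 0.70 for Bnip3 and 0.055 for Ndrg1 in NK cells, 0.10 for Pfkl in mature dendritic cells, -1.02 for Hk2 and -1.30 for Ddit4 in cDC1, and 0.073 for Gpi1 and 0.26 for Tpi1 in cDC2. With Leiden clusters Slc2a1 in mature dendritic cells was 0.029 and Pgf in cDC2 was 0.32. The cause of the changes was not tested. No paired analysis was possible because each group is 1 library.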
